A study of Rattus norvegicus with 6 samples.

Results

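The genes described here are 34 genes of the endoplasmic reticulum (ER) stress response, the unfolded protein response, chosen by symbol from a named list, and all 34 were found among the 24005 gene symbols of the deposited table. They were measured by RNA sequencing of aorta from rats with chronic kidney disease. The treated group, 3 libraries, came from rats injected in the tail vein with 10 mg/kg of ANCR/E7-EXO, which the labels also call engineered exosomes, once every 5 days. Exosomes are small membrane vesicles that cells release. The control group, also 3 libraries, came from rats given an equal volume of saline for 13 weeks. Both groups had lost 5/6 of their kidney mass to staged surgery and ate a diet with 1.2% phosphorus to hasten calcification, so rats without kidney disease were not analysed here. The labels name the tissue as aorta and give no strain, sex or age. Whether the libraries of a group come from different rats is not stated, and the p-values below therefore describe library-to-library spread, which may be technical.

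Proteins that a cell secretes or places in its membranes are threaded into the ER through a channel called the translocon, folded there by chaperones and isomerases, and, if they fail to fold, sent back out and destroyed by ER-associated degradation (ERAD). When unfolded protein builds up, sensors in the ER membrane respond. IRE1 (gene Ern1) splices the mRNA of the transcription factor XBP1, and ATF6 is cut to release a transcription factor; both raise chaperone and ERAD genes. PERK (gene Eif2ak3) slows protein synthesis and favours translation of ATF4, which raises genes of amino acid supply and, through CHOP (gene Ddit3), of cell death. Smooth muscle cells and fibroblasts of the aortic wall secrete much collagen and elastin and depend on this machinery. For the comparison of arms, the 11 folding chaperones and 5 isomerases were taken as the chaperone arm, and Atf4, Ddit3, Trib3, Asns and Chac1 as the ATF4 arm.

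The DNA element through which ATF6 and XBP1 act was read from RefSeq promoters of the rat assembly GRCr8, which cover 250 bases before to 50 after each annotated start. Promoters were held for 28 of the 34 genes, and for Manf, Pdia3, Pdia6, Derl1, Ern1 and Atf6 none was used here. Both strands were searched for the exact letters of the ER stress response element (ERSE), which are CCAAT, 9 bases of any kind and CCACG. The ERSE was present for 8 of the 28 genes (28.6%), namely Calr, Canx, Creld2, Derl3, Dnajc3, Hsp90b1, Hspa5 and Xbp1, against 21 of all 27457 genes with a promoter (0.0765%). The related ERSE-II, which is ATTGG, 1 base of any kind and CCACG, was present for Dnajb11, Herpud1 and Hyou1, against 17 genes in all (0.0619%). Together 11 of the 38 genes in the rat table that held either element were among these 34. The XBP1 element TGACGTGG was found for Hyou1 alone of the 28, where its letters overlapped those of an ERSE-II match, against 0.681% of all genes. The letters TGATGNAAT, searched for ATF4, were found for none of the 28, the 5 genes of the ATF4 arm included, against 1.14% of all genes. ATF4 sites with other letters were not searched, so this does not show that the genes lack one. All results of this search are matches of letters in short windows and say nothing of binding. The windows below show the element, in capitals, in 4 genes with log2 differences between exosome and saline libraries of 0.24 to 0.42 (Hspa5, Xbp1, Dnajc3 and Herpud1) and in 3 with differences of -0.02 to 0.09 (Canx, Calr and Hyou1), none of which passed the test. Each runs 5′ to 3′ on the gene's own strand, before the start.
Hspa5, chr3:38452953-38453011, plus strand: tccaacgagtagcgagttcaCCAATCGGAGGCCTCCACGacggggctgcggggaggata
Xbp1, chr14:84604538-84604596, plus strand: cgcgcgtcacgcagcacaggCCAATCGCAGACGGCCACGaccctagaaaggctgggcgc
Dnajc3, chr15:102432514-102432572, plus strand: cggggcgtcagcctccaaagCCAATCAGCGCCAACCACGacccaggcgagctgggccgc
Herpud1, chr19:10614797-10614855, minus strand, ERSE-II: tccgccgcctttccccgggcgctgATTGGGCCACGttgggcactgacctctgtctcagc
Canx, chr10:35158049-35158107, minus strand: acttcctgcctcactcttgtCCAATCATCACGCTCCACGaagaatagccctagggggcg
Calr, chr19:40213117-40213173, plus strand, element reversed: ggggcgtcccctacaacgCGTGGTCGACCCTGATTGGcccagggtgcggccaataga
Hyou1, chr8:53602770-53602828, plus strand, ERSE-II reversed: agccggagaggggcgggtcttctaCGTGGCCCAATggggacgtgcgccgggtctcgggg
In Calr and Hyou1 the element lies on the other strand, so the capitals give its reverse complement.

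Levels are in FPKM, read counts corrected for gene length and sequencing depth, so genes can be compared by level. Calr, which encodes the calcium-binding chaperone calreticulin, had the highest mean over the 6 libraries, 266 FPKM, followed by the isomerases Pdia3 (241 FPKM) and P4hb (237 FPKM) and by Hsp90b1 (195 FPKM). Over the 6 libraries Calr ranged from 230.02 to 311 FPKM, Pdia3 from 224 to 268 FPKM and P4hb from 223 to 263 FPKM, so these neighbours overlapped. Hsp90b1 ranged from 162 to 219.97 FPKM and did not reach the range of P4hb. The membrane sensors stood lower, at means of 24.5 FPKM for Atf6, 11.5 for Eif2ak3 and 8.29 for Ern1. In the ATF4 arm, Atf4 stood at a mean of 123 FPKM, Ddit3 at 12.2, Asns at 2.84, Trib3 at 0.712 and Chac1 at 0.165. Derl3, an ERAD gene that is abundant in secretory glands, was listed at 0 in 5 libraries and at 0.00958 FPKM in exosome 3. With only 1 library above 0 its read count cannot be recovered, and it was taken as 1 read. On that assumption a count of 0 allows up to 3 reads, or 0.0380 to 0.0465 FPKM, in those 5 libraries, for counting error only. All 34 genes together made up 0.520%, 0.533% and 0.543% of the summed FPKM in exosome 1, 2 and 3, against 0.553%, 0.492% and 0.474% in saline 1, 2 and 3.

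**Figure D1:**
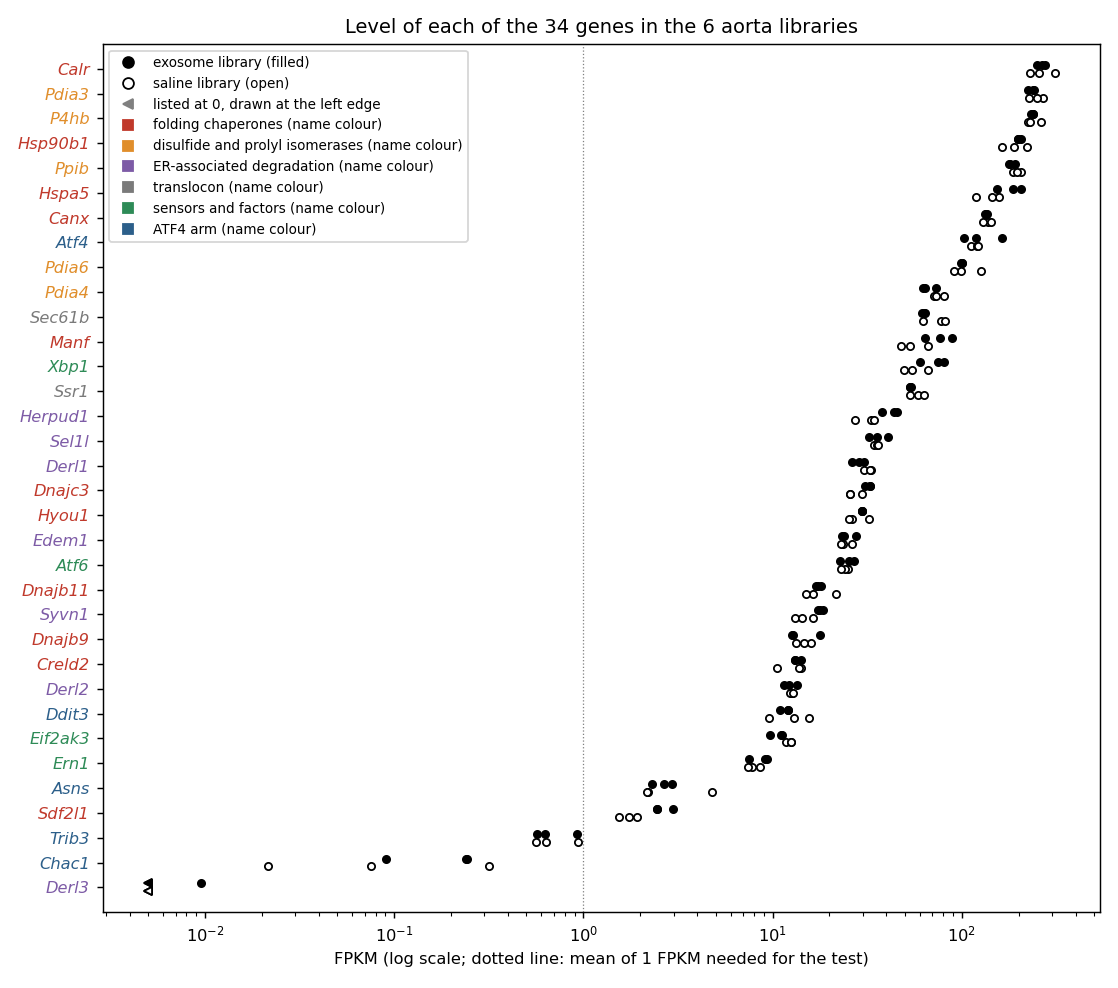
FPKM of each of the 34 genes (rows, ordered by their mean over 6 libraries, name coloured by role) on a log axis, with exosome libraries as filled and saline libraries as open circles. Folding chaperones and isomerases lie mostly above 10 FPKM, and Trib3, Chac1 and Derl3 lie left of the dotted line at 1 FPKM.

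Exosome and saline libraries were compared with limma on log2(FPKM + 1) for the 11742 genes with a mean of at least 1 FPKM, with Benjamini-Hochberg adjustment over all of them. Of the 34 genes, 31 reached that mean, and Trib3, Chac1 and Derl3 did not. None of the 31 passed an adjusted p of 0.05, where 0.00852% of all genes tested did, which is 1 gene (Zbtb16). That count over all genes was 9 without saline 1, 4 without exosome 2, 2 without exosome 3 and 0 without exosome 1 or saline 3. Adjusted p-values of the 31 ran from 0.261 (Herpud1) to 0.995 (Calr), and limma-voom on reads recovered from the FPKM also called none of them. At an unadjusted p under 0.05, 5 of the 31 were higher (16.1%) and none lower, where 6.75% of all genes were higher and 9.24% lower. Those 5 were Herpud1, Sdf2l1, Manf, Syvn1 and Hspa5. The count of higher genes was 1 when exosome 1, exosome 3, saline 2 or saline 3 was left out, and 7 without saline 1. Without saline 3, 1 gene was lower at that level. Groups did not overlap, with exosomes higher, for 4 of the 31 (12.9%; Sdf2l1, Dnajc3, Herpud1 and Syvn1), where 9.40% of all genes did the same. Eif2ak3 alone was lower with groups apart (3.23%), where 11.7% of all genes were. In all, 16 of the 31 had a log2 difference above 0, with a median of 0.0023, against 39.3% of all genes and a median of -0.073. When libraries were rescaled to the median of ratios, 22 of the 31 lay above 0, against 49.0% of all genes.

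The libraries held 28063355 to 44561082 reads, as the FPKM steps imply, and smooth muscle markers were abundant in each, with Myh11, Acta2, Tagln, Cnn1, Smtn and Lmod1 summing to 14907 to 20982 FPKM with exosomes and 13468 to 21219 FPKM with saline. Markers of other cell types differed in both directions. Of 8 macrophage markers 7 were higher with exosomes, and their sum ran from 171 to 219 FPKM, against 153 to 162 FPKM with saline. Of 7 endothelial markers 6 were higher, with sums of 126 to 196 FPKM with exosomes and 80.5 to 112 FPKM with saline. Of 6 fibroblast markers 1 was higher, with sums of 2322 to 2782 FPKM with exosomes and 2276 to 3218 FPKM with saline. Of 6 adipocyte markers none was higher, with sums of 356 to 627 FPKM with exosomes and 318 to 1099 FPKM with saline, where saline 2 alone was high. None of 3 erythroid markers was higher, with sums of 175 to 531 FPKM with exosomes and 292 to 800.3 FPKM with saline. Plasma cells, which carry much ER machinery, had marker sums of 24.8 to 38.8 FPKM with exosomes and 24.9 to 36.2 FPKM with saline. Their markers Mzb1, Pou2af1 and Tnfrsf17 stayed under 1 FPKM on average, so these sums rested mainly on Jchain, Sdc1 and Tent5c. Whether the RNA of those 3 genes came from plasma cells was not tested. The part of these cells in the values that follow was not tested, and in whole tissue fewer cells of a type and less RNA per cell cannot be told apart.

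**Figure D2:**
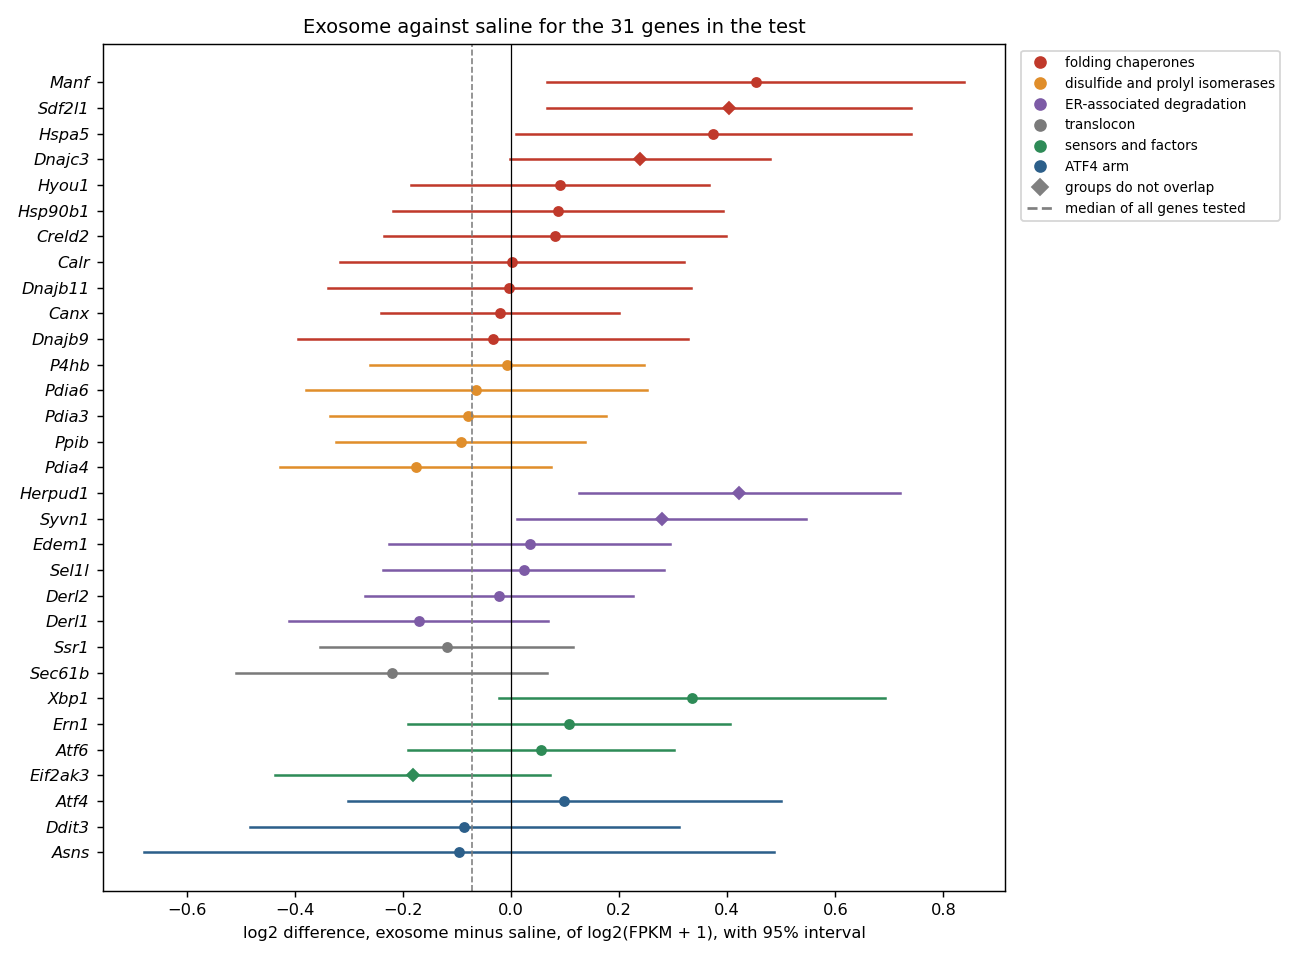
Log2 difference (exosome minus saline, of log2(FPKM + 1)) with its 95% interval from limma for the 31 genes tested, grouped by role. Diamonds mark the 5 genes whose groups did not overlap. The intervals of Herpud1, Manf, Sdf2l1, Hspa5 and Syvn1 lie above 0 before adjustment for 11742 genes, and those of the isomerases and of the ATF4 arm span it.

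Among the folding chaperones, 8 of 11 lay above 0, with a median log2 difference of 0.086. The largest difference was that of Manf, which encodes a small protein of the ER that binds BiP and can be secreted. Manf stood at 77.2, 63.9 and 88.6 FPKM in exosome 1, 2 and 3, against 66.3, 53.3 and 47.5 FPKM in saline 1, 2 and 3. Saline 1 lay just above exosome 2, and the other values kept to their sides. The log2 difference was 0.45 ± 0.17 (SE), from means of 76.6 ± 12.3 FPKM with exosomes and 55.7 ± 9.63 FPKM with saline (SD, n = 3 each), with an adjusted p of 0.289 in limma.

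Hspa5 encodes BiP, the main HSP70 chaperone of the ER lumen, which also holds the sensors inactive until unfolded protein draws it away. Its FPKM were 187, 153 and 206 with exosomes, against 158, 145 and 118 with saline. Exosome 3 and exosome 1 stood above every saline library, and exosome 2 stood just under saline 1. The log2 difference was 0.37 ± 0.16 (SE; adjusted p = 0.309), resting on 10307 to 23480 reads per library. The DnaJ co-chaperones of BiP differed among themselves. Dnajc3, which encodes p58IPK, an inhibitor of PERK and co-chaperone of BiP, stood at 30.9, 32.7 and 32.7 FPKM with exosomes and at 29.9, 25.8 and 25.6 FPKM with saline. Its groups did not overlap, although exosome 1 and saline 1 lay close, and its log2 difference was 0.24 ± 0.10 (SE; adjusted p = 0.313). Dnajb9, which encodes ERdj4, a co-chaperone that represses IRE1, stood at 12.8, 17.8 and 12.7 FPKM with exosomes and at 13.3, 16.03 and 14.6 FPKM with saline. Exosome 2 was the highest library for Dnajb9 and exosome 3 the lowest. Dnajb11, which encodes the soluble co-chaperone ERdj3, stood at 17.5 ± 0.569 FPKM with exosomes and 17.7 ± 3.47 FPKM with saline (SD, n = 3 each).

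Sdf2l1 encodes a lumenal partner of ERdj3 and is a sharp marker of the response. It stood at 2.46, 2.44 and 2.97 FPKM with exosomes, against 1.93, 1.55 and 1.74 FPKM with saline. The groups did not overlap, exosomes being higher, and the ratio of the means was 1.51. It rested on few reads, 90, 73 and 141 with exosomes and 69, 49 and 63 with saline. The log2 difference was 0.40 ± 0.14 (SE; adjusted p = 0.286), and it was 0.60 in limma-voom on recovered reads, since adding 1 to FPKM shrinks the change of a gene at this level.

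The remaining chaperones had smaller differences. Hsp90b1, which encodes GRP94, the HSP90 of the ER, stood at 198, 197 and 206 FPKM with exosomes and at 219.97, 189 and 162 FPKM with saline. The saline libraries enclosed the exosome libraries, and the log2 difference was 0.09 ± 0.13 (SE; 95% interval -0.22 to 0.39). The same enclosure held for Hyou1, the large HSP70-like exchange factor of BiP, at 29.8, 29.7 and 29.6 FPKM with exosomes against 32.5, 26.2 and 25.4 FPKM with saline. Calr stood at 265 ± 12.9 FPKM with exosomes and 266 ± 41.4 FPKM with saline, a log2 difference of 0.0023 with a 95% interval of -0.32 to 0.32. Canx, which encodes calnexin, the membrane-bound lectin chaperone that works with calreticulin, stood at 135 ± 1.81 and 137 ± 7.04 FPKM in exosome and saline libraries (SD, n = 3 each). Creld2, an ER protein induced by stress, stood at 13.1, 13.2 and 14.2 FPKM with exosomes and at 14.2, 13.7 and 10.5 FPKM with saline, where only saline 3 was low.

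All 5 isomerases lay below 0, with a median log2 difference of -0.079, close to the -0.073 of all genes tested. Pdia4, a disulfide isomerase also known as ERp72, had the largest of these. It stood at 62.1, 72.9 and 63.95 FPKM with exosomes and at 80.5, 71.2 and 73.4 FPKM with saline, so exosome 2 overlapped the saline group. Its log2 difference was -0.18 ± 0.11 (SE; adjusted p = 0.424). Ppib, the cyclophilin that assists collagen folding, had a difference of -0.09, Pdia3, the isomerase that serves glycoproteins, of -0.08, and Pdia6, which also switches off IRE1, of -0.06. P4hb, which encodes protein disulfide isomerase and is also a subunit of collagen prolyl hydroxylase, had a difference of -0.0073. With the median of ratios P4hb turned to 0.07 and Pdia6 to 0.01, while Pdia3 stood at -0.0033, Ppib at -0.018 and Pdia4 at -0.10. For Pdia6 the exosome libraries were nearly identical, at 99.7, 99.4 and 100.1 FPKM, while saline libraries spread over 126, 99.2 and 90.7 FPKM.

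Saline 1 and saline 3 set the spread of the chaperone arm. Saline 1 was the highest of the 6 libraries for 9 of the 16 genes and the lowest for none. Saline 3 was the lowest for 10 of the 16 and the highest for none. Exosome 3 was the highest for 5, which were Hspa5, Manf, Sdf2l1, Dnajc3 and Creld2.

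**Figure D3:**
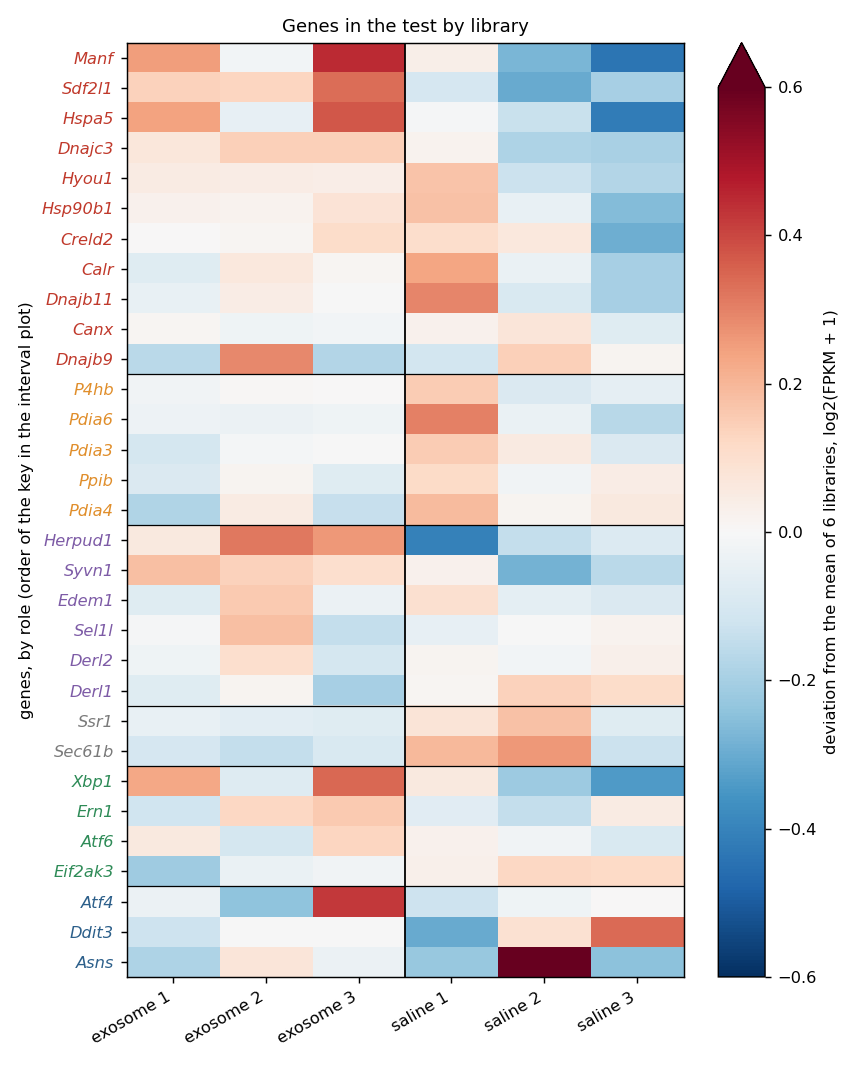
Deviation of each of the 31 tested genes from its own mean over the 6 libraries, in log2(FPKM + 1), by library (columns) and role (blocks of rows). The isomerases are highest in saline 1, and Manf, Hspa5 and Xbp1 are highest in exosome 3 and lowest in saline 3.

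Among the 6 tested ERAD genes, Herpud1 and Syvn1 stood apart by group. Herpud1 encodes a membrane protein of the ER that recruits ubiquitin ligase complexes, and it had the smallest p of all 31 genes. It stood at 37.97, 45.7 and 43.9 FPKM with exosomes, against 27.3, 32.96 and 34.4 FPKM with saline. Every exosome library lay above every saline library. The log2 difference was 0.42 ± 0.13 (SE; adjusted p = 0.261), and it stayed between 0.32 and 0.50 when single libraries were left out. Syvn1 encodes HRD1, the ubiquitin ligase through which lumenal proteins leave the ER. It stood at 18.4, 17.9 and 17.4 FPKM with exosomes and at 16.4, 13.1 and 14.3 FPKM with saline, with no overlap and a log2 difference of 0.28 ± 0.11 (SE; adjusted p = 0.307). The partner of HRD1, Sel1l, did not share this pattern. Sel1l stood at 35.6, 40.6 and 32.2 FPKM with exosomes, which enclosed the saline values of 34.4, 35.6 and 36.2 FPKM. Edem1, a lectin that draws misfolded glycoproteins out of folding, had a log2 difference of 0.03. The derlins, membrane proteins of the exit channel, had differences of -0.17 for Derl1, at 28.5 ± 2.24 FPKM with exosomes and 32.2 ± 1.52 FPKM with saline, and of -0.02 for Derl2 (SD, n = 3 each). The sign of Derl2 turned when libraries were brought to the same FPKM sum or to the median of ratios.

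Both translocon genes lay below 0, with a median log2 difference of -0.17 against -0.073 for all genes tested, and with overlapping groups. Sec61b, a subunit of the SEC61 channel, stood at 63.4, 61.6 and 63.8 FPKM with exosomes, within a narrow band, and at 78.1, 81.7 and 62.2 FPKM with saline. Saline 3 lay inside the exosome range, and the log2 difference was -0.22 ± 0.12 (SE; adjusted p = 0.391). Ssr1, a subunit of the translocon-associated complex, stood at 53.6 ± 0.453 FPKM with exosomes and 58.5 ± 5.06 FPKM with saline (SD, n = 3 each; adjusted p = 0.550). With the median of ratios the differences were -0.15 for Sec61b and -0.045 for Ssr1. Short mRNAs such as Sec61b and Ppib may share reads with pseudogenes, which cannot be separated here.

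Of the sensors and their factors, Xbp1 had the largest difference. It stood at 74.6, 59.98 and 80.8 FPKM with exosomes, against 65.9, 54.3 and 49.8 FPKM with saline. The order of the libraries was that of Manf and Hspa5, with exosome 3 highest and saline 3 lowest, and exosome 2 stood below saline 1. The log2 difference was 0.34 ± 0.15 (SE; adjusted p = 0.328). The values count all Xbp1 reads, so splicing by IRE1 was not analysed here. Ern1, the gene of IRE1, stood at 7.51, 9.08 and 9.33 FPKM with exosomes and at 7.82, 7.39 and 8.58 FPKM with saline, an overlap with a log2 difference of 0.11 (adjusted p = 0.674). Atf6 stood at 25.0 ± 2.15 FPKM with exosomes and 24.0 ± 1.02 FPKM with saline (SD, n = 3 each), a difference of 0.06. Eif2ak3, the gene of PERK, stood at 9.76, 11.1 and 11.3 FPKM with exosomes, against 11.7, 12.6 and 12.6 FPKM with saline. All exosome libraries lay below all saline libraries, exosome 3 and saline 1 being close, and the log2 difference was -0.18 ± 0.11 (SE; adjusted p = 0.417).

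**Figure D4:**
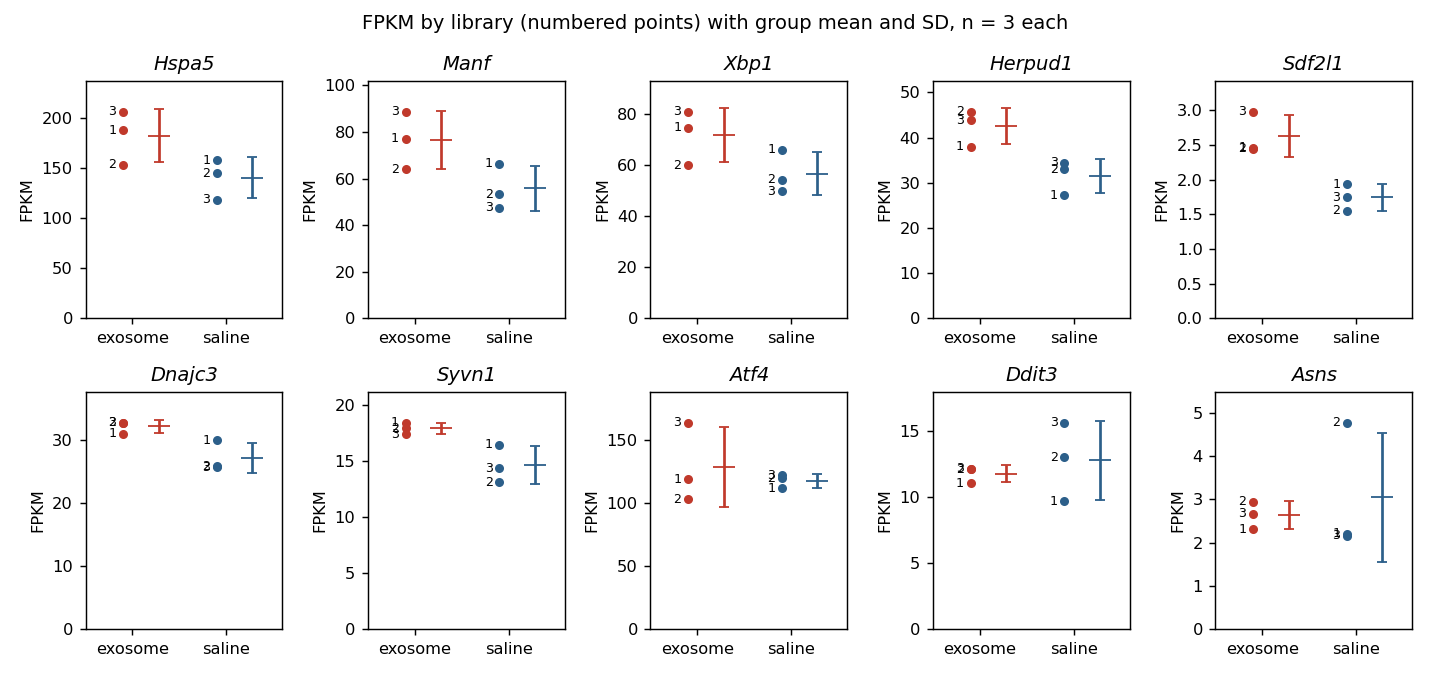
FPKM of 10 of the genes in each library (numbered points), with the mean and SD of each group beside them (n = 3 each). Exosome libraries lie above saline libraries without overlap for Herpud1, Sdf2l1, Dnajc3 and Syvn1, and the groups overlap for Hspa5, Manf and Xbp1 and for Atf4, Ddit3 and Asns.

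The ATF4 arm showed no common direction. Atf4 itself stood at 119, 103 and 164 FPKM with exosomes and at 112, 120.01 and 122 FPKM with saline. Exosome 3 alone was high, exosome 2 was the lowest of all 6, and the log2 difference of 0.10 ± 0.17 (SE; adjusted p = 0.777) turned to -0.09 without exosome 3. ATF4 protein is set mainly by translation, which RNA levels do not show. Ddit3, which encodes CHOP, stood at 11.01, 12.1 and 12.1 FPKM with exosomes, inside the saline values of 9.64, 12.97 and 15.6 FPKM, with a difference of -0.09 (adjusted p = 0.805). Asns, which encodes asparagine synthetase, stood at 2.31, 2.95 and 2.66 FPKM with exosomes and at 2.20, 4.78 and 2.16 FPKM with saline. Saline 2 alone was high for Asns, and its difference of -0.10 turned to 0.19 without that library. Trib3, a pseudokinase induced by ATF4 and CHOP that damps the response, lay below the expression minimum at 0.630, 0.573 and 0.925 FPKM with exosomes and 0.562, 0.942 and 0.637 FPKM with saline, from 23 to 59 reads. Chac1, a glutathione-degrading enzyme and late target of ATF4, rested on 13, 4 and 17 reads with exosomes and 4, 1 and 17 reads with saline. No difference in Trib3 or Chac1 was detectable at this depth.

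Set against each other, the arms did not separate by treatment. The median log2 difference was -0.00064 over the 16 genes of the chaperone arm, with 8 above 0, and -0.087 over the 3 tested genes of the ATF4 arm, with 1 above 0. Each arm was also scored in each library as the mean deviation of its tested genes from their own mean over the 6 libraries, in log2 units. The chaperone arm scored 0.0050, 0.042 and 0.070 in exosome 1, 2 and 3, against 0.11, -0.063 and -0.16 in saline 1, 2 and 3. The exosome libraries lay close together and inside the range of the saline libraries. The ATF4 arm scored -0.11, -0.057 and 0.13 with exosomes and -0.22, 0.23 and 0.031 with saline, again with the saline range outside. The chaperone score minus the ATF4 score, which hardly depends on how a library is scaled, was 0.12, 0.0996 and -0.060 with exosomes and 0.33, -0.29 and -0.20 with saline. Saline 1 combined the highest chaperone score with the lowest ATF4 score. Without saline 1 the difference between the medians of the arms was 0.37, against 0.086 with all libraries. It turned to -0.091 without saline 2 and to -0.10 without saline 3.

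**Figure D5:**
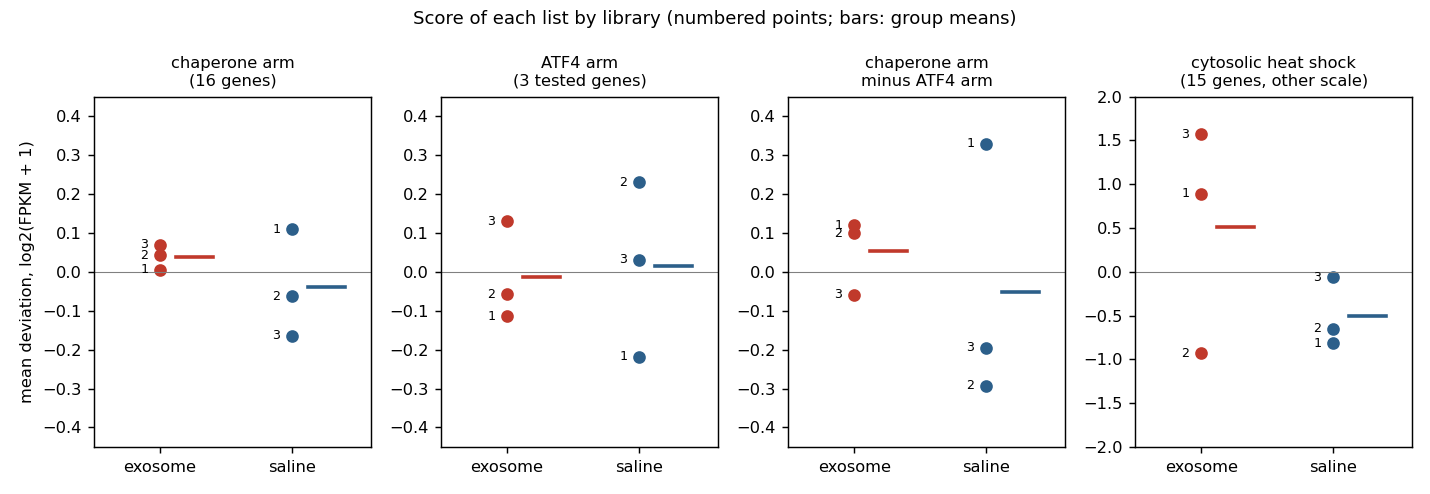
Scores by library (numbered points, bars are group means) in log2 units for the chaperone arm, the ATF4 arm and their difference. The fourth panel, on a wider axis, shows 15 heat shock genes from a mostly cytosolic list. Saline libraries span the exosome libraries in the first 3 panels, and exosome 1 and 3 stand far above exosome 2 in the fourth.

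Heat shock genes, the HSF1-driven counterpart of the ER response, differed widely among the exosome libraries. The list was mostly cytosolic but also named Hspd1 and Hspe1, which encode mitochondrial chaperones. All 15 tested genes lay above 0, against 39.3% of all genes, with a median log2 difference of 1.06 and none called. Groups were apart for 0 of the 15, where 9.40% of all genes were apart and higher and 11.7% apart and lower. Stip1, a co-chaperone of HSP70 and HSP90, stood at 129, 48.6 and 207 FPKM with exosomes and at 46.6, 42.3 and 49.2 FPKM with saline. Exosome 2 was level with saline for Stip1, whose difference was 1.23 (adjusted p = 0.289), and Ahsa1 (0.78) and Chordc1 (1.06) overlapped between groups too. The 15 genes scored 0.89, -0.93 and 1.57 in exosome 1, 2 and 3 and -0.82, -0.65 and -0.064 in saline 1, 2 and 3. Hspa5, Manf and Xbp1 were likewise higher in exosome 3 and exosome 1 than in exosome 2. Within saline the order was the opposite, with the heat shock score highest in saline 3 and Hspa5, Manf and Xbp1 lowest there. The summed smooth muscle markers stood at 20982, 14907 and 19102 FPKM in exosome 1, 2 and 3. In saline 1, 2 and 3 they stood at 21219, 14411 and 13468 FPKM. Like Hspa5, Manf and Xbp1, these markers were higher in exosome 1, exosome 3 and saline 1 than in the other libraries. With exosome 1 and 3 both left out, exosome 2 against the saline libraries gave log2 differences of 0.14 for Hspa5, 0.21 for Manf and 0.09 for Xbp1. In the same setting Herpud1 stood at 0.53, Sdf2l1 at 0.33, Syvn1 at 0.28 and Dnajc3 at 0.26. Exosome 2 was the lowest exosome library for Hspa5, Manf and Xbp1 and the highest of all libraries for Herpud1. The fall of the former and the rise of Herpud1 were thus fixed by the library kept and test nothing. The median over all genes tested was 0.027 in this setting, with 54.8% above 0, against -0.073 and 39.3% with all libraries. Atf4 stood at -0.19 there. That fit takes the spread of the single exosome library to be that of the saline group, and it called no gene of all those tested. The part of the heat shock response, or of smooth muscle RNA, in these values was not tested.

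Read against the promoters, the 10 tested genes with an ERSE or ERSE-II had a median log2 difference of 0.088, with 8 above 0. The 15 tested genes whose promoter held neither had a median of -0.033, with 5 above 0. Over all genes tested the median was -0.073, with 39.3% above 0. Both sets held few genes with groups apart. With an element, Herpud1 and Dnajc3 were higher (2 of 10, 20%). Without the exact letters, Sdf2l1 and Syvn1 were higher (2 of 15, 13.3%) and Eif2ak3 was lower. Over all genes tested, 9.40% were apart and higher, and 11.7% apart and lower. Genes with the element scored 0.057, 0.049 and 0.14 in exosome 1, 2 and 3 and 0.067, -0.084 and -0.22 in saline 1, 2 and 3, so saline 1 lay within the exosome range. Calr and Canx carry the element too, at differences of 0.0023 and -0.02.

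Other genes of the same pathways, from 6 lists named for this purpose, gave no call either. The counts and medians of these lists stand beside a median of -0.073 over all genes tested, with 39.3% above 0. Of 29 tested genes of ER folding outside the 34, 11 lay above 0 (median -0.075). For 4 of the 29 (13.8%) the groups were apart with exosomes higher, and for 3 (10.3%) with exosomes lower. The same held for 9.40% and 11.7% of all genes. P4ha2, a collagen prolyl hydroxylase subunit, stood at 40.5 ± 6.06 FPKM with exosomes and 29.7 ± 2.32 FPKM with saline, Cnpy3 had a log2 difference of -0.32, and Sdf4, a calcium-binding protein of the Golgi, of -0.28, all with groups apart and adjusted p of 0.266 to 0.270. Of 22 further ERAD genes 12 lay above 0 (median 0.028), led by Ube2g2, a ubiquitin-conjugating enzyme of ERAD, at 24.3 ± 0.254 FPKM with exosomes and 16.8 ± 2.54 FPKM with saline (adjusted p = 0.255). Edem3 (0.36) and Nploc4 (0.35), an adaptor of the p97 extraction complex, followed. Groups were apart, exosomes higher, for 7 of these 22 (31.8%), against 9.40% of all genes. With exosomes lower they were apart for 1 (4.55%), against 11.7% of all genes. Of 30 genes of the translocon, signal recognition, signal peptidase and glycan transfer only 4 lay above 0 (median -0.091). The glycan transferase subunit Stt3b stood at 0.35, Spcs1 at -0.29 and Srp19 at -0.29. For 1 of these 30 (3.33%) the groups were apart with exosomes higher, and for 5 (16.7%) with exosomes lower.

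Of 28 tested targets of ATF4, 15 lay above 0 and 13 below, with a median of 0.048 and none called. Their log2 differences ran from -2.81 to 1.14. Groups were apart, exosomes higher, for 5 (17.9%) and, exosomes lower, for 4 (14.3%). The same held for 9.40% and 11.7% of all genes. The 3 with the smallest p stood higher without overlap. Slc3a2 and Slc1a4, both of amino acid transport, and the transcription factor gene Cebpb had log2 differences of 0.49, 0.56 and 0.78. The adjusted p in limma was 0.255 for each. Slc3a2 stood at 48.5, 52.6 and 53.7 FPKM with exosomes and at 33.2, 35.2 and 41.1 FPKM with saline. Of 14 tRNA synthetase genes that ATF4 can raise, 11 lay above 0 (median 0.12). Groups were apart, exosomes higher, for 5 of these 14 (35.7%), against 9.40% of all genes, and lower for 0. Cars had the smallest p of these, with a difference of 0.55 and its exosome values at 10.3, 6.63 and 12.3 FPKM against 6.10, 6.11 and 6.23 FPKM with saline. Tars (0.24) and Aars (0.30) came next. Among 25 tested regulators of the sensors and of eIF2, 9 lay above 0 (median -0.094). For 0 of these 25 the groups were apart with exosomes higher, and for 1 (4%) with exosomes lower. Eif2ak2, an eIF2 kinase that interferon induces, stood at 9.61 ± 1.35 FPKM with exosomes and 16.1 ± 3.20 FPKM with saline (SD, n = 3 each; adjusted p = 0.255), with no overlap. Map3k5 (0.65) and Eif2ak4 (-0.39), the eIF2 kinase that senses amino acid lack, overlapped between groups.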

How the data were processed

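Expression values are FPKM as the authors deposited them, 1 column for each library, matched here by sample title. Per the labels' protocols, libraries were made with a SMARTER mRNA kit. DESeq2 1.28.1 appears in the submitters' processing notes without a role. No source used here gives the aligner, counting tool, strand setting, genome build or annotation. FPKM steps gave whole reads for 18430 genes (100% of those above 0, within 0.02 reads). Gene length was chosen to fit, so a gene above 0 in only 1 library fits by construction. For genes above 0 in few libraries this share does not test the recovered reads.

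Groups were compared with limma 3.58.1 (R 4.3.3), trended and two-sided, on log2(FPKM + 1), for genes with a mean of at least 1 FPKM. The threshold was a Benjamini-Hochberg adjusted p of 0.05, with no covariate. A pseudocount of 1 understates the change of low genes. SDs are of FPKM within a group, and SEs and 95% intervals are limma's. The fit was tested on simulated data. The 34 genes, lists and tests were chosen with earlier results of these data known. All 34 genes were described, and of each wider list the 3 with the smallest p. The alternatives are named with the limits at the end. Promoters are from RefSeq (GRCr8). Python 3.11.15, pandas 2.3.3 and matplotlib 3.10.9 served for tables and plots.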

Additional observations from a re-analysis of the deposited data

How the results depend on the processing

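None of the 31 tested genes (29 with a mean of at least 5 FPKM) was called in any of the settings run: a pseudocount of 0.1, no filter, a mean of at least 5 FPKM, equal sums, the median of ratios, limma-voom on recovered reads, robust moderation, a replicate block, each library left out, and exosome 1 and 3 left out together. The lowest adjusted p was 0.102, for Manf without exosome 2. Same-numbered libraries did not deviate together (correlations of 0.068, 0.096 and -0.17), so the replicate block served only as an alternative: it called 0 of the 31 and 1 gene in all, and 2 of the 31 had an unadjusted p under 0.05. Over all genes the count of 1 ran from 0 (without exosome 1 or saline 3) to 9 (without saline 1) and was 0 with exosome 1 and 3 left out. Leaving out single libraries moved the chaperone arm's median between -0.040 and 0.13, the ATF4 arm's between -0.24 and 0.11, and their difference between -0.10 and 0.37. With a mean of at least 5 FPKM the ATF4 arm's median was 0.0058 and the difference -0.0094.

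Signs turned for differences near 0, and the cause was not tested. With the median of ratios Canx stood at 0.056, Dnajb9 at 0.037, Dnajb11 at 0.068, Pdia6 at 0.012, P4hb at 0.069 and Derl2 at 0.048. With equal sums Canx stood at 0.017, Dnajb9 at 0.0019, Dnajb11 at 0.032, P4hb at 0.030 and Derl2 at 0.013. Without exosome 1 and 3, Dnajb9 stood at 0.27, Dnajb11 at 0.041, P4hb at 0.0039, Derl2 at 0.091, Atf6 at -0.078, Atf4 at -0.19 and Asns at 0.025. Leaving out single libraries gave -0.022 to 0.20 for Hsp90b1, -0.097 to 0.12 for Calr, -0.061 to 0.012 for Canx, -0.19 to 0.046 for Dnajb9, -0.10 to 0.14 for Dnajb11, -0.045 to 0.16 for Creld2, -0.16 to 0.072 for Pdia6, -0.053 to 0.067 for P4hb, -0.062 to 0.10 for Sel1l, -0.037 to 0.091 for Edem1, -0.079 to 0.026 for Derl2, -0.089 to 0.24 for Atf4, -0.26 to 0.062 for Ddit3 and -0.24 to 0.19 for Asns. Half-widths of the 95% intervals, before adjustment over all genes tested, ran from 0.22 to 0.58 in log2 units. A difference smaller than a gene's own half-width could not be shown, and a larger one could still fail after adjustment. The intervals of Herpud1, Manf, Sdf2l1, Hspa5 and Syvn1 lay above 0. Their adjusted p in limma ran from 0.261 (Herpud1) to 0.309 (Hspa5), so the half-widths understate the difference needed for a call.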

Other observations

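Ratios between genes of the set within a library do not depend on library scaling. The 6 pairs were chosen after their values were seen, so no test is given. The ratio of Hspa5 to Hsp90b1, the HSP70 and the HSP90 of the ER lumen, was 0.945, 0.775 and 0.998 in exosome 1, 2 and 3, against 0.716, 0.768 and 0.728 in saline 1, 2 and 3. The groups did not overlap, but exosome 2 and saline 2 nearly met. The ratio of Manf to Pdia6 was 0.774, 0.643 and 0.885 with exosomes and 0.526, 0.538 and 0.524 with saline and did not overlap either, while the exosome libraries spread over a wider range than the gap between the groups. Saline 1, which had the highest FPKM for Hsp90b1 and Pdia6, stood beside the other saline libraries in both ratios. The ratio of Hspa5 to Ddit3, a chaperone against the ATF4 arm, was 17.01, 12.7 and 16.98 with exosomes and 16.4, 11.2 and 7.58 with saline, and overlapped. The ratios of Hspa5 to Calr, of Hspa5 to Atf4 and of Xbp1 to Atf4 overlapped as well, the last at 0.567 ± 0.0681 with exosomes and 0.483 ± 0.0951 with saline (SD, n = 3 each).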
